A study of Mus musculus with 48 samples.

Results

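The small intestine finishes protein digestion with peptidases anchored in the brush border, the carpet of microvilli on the surface of its absorptive cells. The genes described here encode 8 of these peptidases: Anpep, Dpp4, Enpep, Mme, Mep1a, Mep1b, Tmprss15 and Ace. They were chosen by symbol from the 54532 genes of the count table, and 8 of 8 passed the filter on low counts. The samples were whole-thickness pieces of C57Bl/6J mouse intestine, 2 cm long, of duodenum just below the stomach or of ileum just before the caecum. The ages were day 0, 2, 4, 6 and 8 and week 2, 3 and 4. Each age and region had 3 samples, with no treatment or altered gene in any group. Pups of both sexes were housed in what the labels call germ-free conditions, were kept with their mother to day 21 and fed chow from then on. The labels do not say whether samples that share an age and number came from the same mouse, nor that each sample is a separate mouse, so the p-values measure the spread between these samples only.

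Aminopeptidase N (Anpep) and aminopeptidase A (Enpep), which prefers acidic residues, take single amino acids from the N-terminal end of peptides. Dipeptidyl peptidase 4 (Dpp4) removes dipeptides that end in proline or alanine, and angiotensin-converting enzyme (Ace) removes dipeptides from the C-terminal end. Neprilysin (Mme) and the meprins α (Mep1a) and β (Mep1b) cut inside peptides. Enteropeptidase (Tmprss15) activates trypsinogen and so starts the cascade of pancreatic proteases in the upper intestine. Milk is the first food of a mouse, and several brush border enzymes are known to shift around weaning, when solid food replaces it.

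The samples numbered 3 at day 6 were left out in both regions because they look exchanged. That labelled duodenum had 523 CPM (counts scaled by library size) of Enpep, against 36.2 and 64.1 CPM in the other duodenal samples of that age. That labelled ileum had 33.7 CPM, against 525 and 609 CPM. Mme gave the mirror image, with 15.6 CPM in the sample labelled duodenum and 294 CPM in that labelled ileum. The day 6 differences between regions in Enpep and Mme therefore depend in part on leaving these samples out. This left 46 of 48 samples, and calls that are lost when both are kept under their labels are named below. A comparison without day 6 uses the same samples either way. There the 2 samples enter only through the filter, the scaling and the spread estimated over all groups. Duodenal Enpep from day 0 to day 2, for example, differed by −1.58 (log2) with all 48 samples and with 46. Total counts ran from 16824021 to 65042327, and mitochondrial genes took 13.1% to 35.2% of them. Summed over 5 genes, smooth muscle markers reached only 3.56 to 168 CPM, low for whole-thickness tissue, against 1924 to 10980.2 CPM for 10 genes of microvillus structure. Fibroblast markers summed to 4.95 to 549.8 CPM, and stomach markers to 0.0769 to 16.4 CPM. The sum of 12 pancreatic genes was highest in duodenum day 2 sample 1, at 532 CPM, next to 23.2 and 38.1 CPM in its group.

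On GRCm38, Anpep (ENSMUSG00000039062) lies on the minus strand of chromosome 7 from 79821803 to 79861059, and Dpp4 (ENSMUSG00000035000) on the minus strand of chromosome 2 from 62330073 to 62412231. Enpep (ENSMUSG00000028024) lies on the minus strand of chromosome 3 from 129269175 to 129332720, and Mme (ENSMUSG00000027820) on the plus strand of chromosome 3 from 63241537 to 63386030. Mep1a (ENSMUSG00000023914) lies on the minus strand of chromosome 17 from 43474324 to 43502812, Tmprss15 (ENSMUSG00000022857) on the minus strand of chromosome 16 from 78953008 to 79091097 and Ace (ENSMUSG00000020681) on the plus strand of chromosome 11 from 105967945 to 105989964. Mep1b is ENSMUSG00000024313. The longest coding transcripts hold from 14 exons, in Mep1a, to 28, in Tmprss15.

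The 250 bases before the start of 4 members are printed here because these genes took 4 different courses over age and region. Dpp4 was higher at week 3 than at week 2 in both regions, Enpep was higher in ileum, Mep1a was lower in duodenum after week 2, and Tmprss15 was largely duodenal. The windows are RefSeq promoters of GRCm38.p6 on the minus strand, Dpp4 at chr2:62412232-62412481, Enpep at chr3:129332750-129332999, Mep1a at chr17:43502774-43503023 and Tmprss15 at chr16:79091098-79091347, written 5′ to 3′ on the gene's own strand. Capitals mark matches to short letter runs known from the sites of gut transcription factors. A match on the other strand appears as its reverse complement.
Dpp4: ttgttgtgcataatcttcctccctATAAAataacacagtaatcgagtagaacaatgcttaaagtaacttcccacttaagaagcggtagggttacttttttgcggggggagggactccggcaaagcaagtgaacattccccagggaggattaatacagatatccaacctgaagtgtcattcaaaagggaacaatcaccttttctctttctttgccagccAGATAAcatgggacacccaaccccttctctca
Enpep: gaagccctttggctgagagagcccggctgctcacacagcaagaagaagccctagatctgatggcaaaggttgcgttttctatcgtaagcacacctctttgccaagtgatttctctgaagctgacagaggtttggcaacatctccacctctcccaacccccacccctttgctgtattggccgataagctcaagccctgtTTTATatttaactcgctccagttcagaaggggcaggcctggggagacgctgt
Mep1a: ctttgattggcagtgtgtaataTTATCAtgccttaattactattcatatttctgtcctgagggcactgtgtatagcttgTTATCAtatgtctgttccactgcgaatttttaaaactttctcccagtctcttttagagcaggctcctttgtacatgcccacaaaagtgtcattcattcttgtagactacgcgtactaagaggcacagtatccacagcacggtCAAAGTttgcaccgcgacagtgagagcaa
Tmprss15: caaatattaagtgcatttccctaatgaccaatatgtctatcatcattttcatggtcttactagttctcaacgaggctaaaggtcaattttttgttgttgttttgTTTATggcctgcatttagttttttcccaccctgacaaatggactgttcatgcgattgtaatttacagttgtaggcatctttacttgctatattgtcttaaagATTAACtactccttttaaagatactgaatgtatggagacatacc
Both strands were searched for each run, and no printed match overlaps another. GTTAAT, part of an HNF1 site, was found in Tmprss15, from 44 to 39 bases before the start, and in 6.43% of all 32851 RefSeq windows of this length. CAAAGT, the core of an HNF4 site, was found in Mep1a, from 29 to 24 bases before the start, and in 12.6% of all windows. AGATAA, a site of GATA factors, was found in Dpp4, from 32 to 27 bases before the start, and in 9.99% of all windows. TGATAA, another form of it, was found at 2 places in Mep1a and in 7.94% of all windows. TTTAT, a CDX site, was found in Dpp4, Enpep and Tmprss15, and in 37.3% of all windows. These matches describe letters and do not show that a factor binds.

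**Figure D1:**
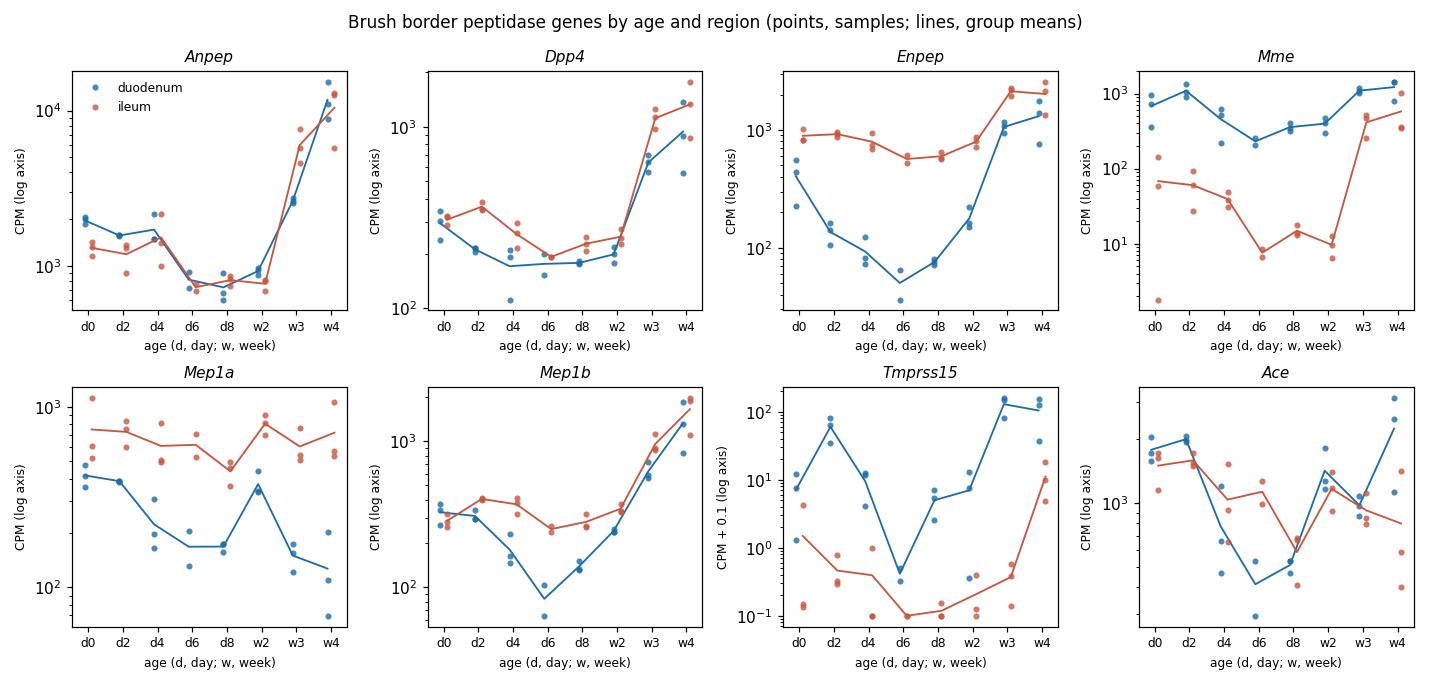
CPM on a log axis against age for each of the 8 members in duodenum (blue) and ileum (red); points are the 46 samples and lines join group means, with 0.1 CPM added for Tmprss15, which has samples at 0. Anpep, Dpp4 and Mep1b step up between week 2 and week 3 in both regions, and Enpep and Mme keep the regions apart from day 0 to week 3.

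The aminopeptidase gene Anpep was lowest around day 6 to week 2 and highest at week 4. Its duodenal samples were 2049, 1856 and 1990.1 CPM at day 0 and 963, 946 and 872 CPM at week 2, then 2526, 2747 and 2605 CPM at week 3 and finally 8763, 15338 and 11069 CPM at week 4. No sample of week 3 overlapped week 2, and all 3 of week 4 lay above every earlier sample. Its ileal samples were 1431, 1332 and 1158 CPM at day 0, 689.6, 805 and 807 CPM at week 2, 4617, 7647 and 5735 CPM at week 3, then 12999, 12509 and 5775 CPM at week 4. Ileal sample 3 of week 4 lay within the range of week 3. From week 2 to week 3 Anpep rose by 1.5 ± 0.25 (log2 fold change ± SE, n = 3 and 3, edgeR adjusted p = 1.6e-05) in duodenum and by 2.97 ± 0.26 (adjusted p = 1.91e-11) in ileum.

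Dpp4 took the same step at week 3 from a lower level. Its duodenal samples were 178, 218 and 199 CPM at week 2, then 639, 702 and 566 CPM at week 3. Its ileal samples went from 227, 243 and 275 CPM to 972, 1127 and 1245 CPM. The ages did not overlap in either region, and the rise was 1.68 ± 0.23 in duodenum (edgeR adjusted p = 4.8e-07) and 2.17 ± 0.23 in ileum (adjusted p = 1.91e-09). Lymphocytes also carry Dpp4. The 6 leukocyte markers summed to 24.2 to 29.0 CPM in duodenum at week 2 and 21.9 to 29.8 CPM at week 3, and to 19.0 to 36.3 and 23.5 to 28.3 CPM in ileum. At week 4 they reached 63.3 to 77.6 CPM in duodenum and 139 to 348 CPM in ileum, and their part in the week 4 level of Dpp4 was not tested.

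Enpep, the aminopeptidase for acidic residues, fell in duodenum in the first days while the ileal samples remained above it. Its duodenal samples were 554, 436 and 226 CPM at day 0, 105, 161 and 142 CPM at day 2 and 36.2 and 64.1 CPM at day 6. The fall by day 2 was −1.58 ± 0.27 (edgeR adjusted p = 0.000165), a call that was lost with all 48 samples (adjusted p = 0.149). Its ileal samples were 1026, 829 and 819.6 CPM at day 0 and 863, 968 and 932 CPM at day 2, without overlap with duodenum at either age. Duodenal Enpep then went from 149, 219.9 and 161 CPM at week 2 to 1164, 1080.1 and 936 CPM at week 3, a rise of 2.58 ± 0.28 (adjusted p = 2.95e-09). Ileal Enpep went from 720.4, 803 and 864 to 2165, 2284 and 1955 CPM, a rise of 1.42 ± 0.27 (adjusted p = 6.37e-05), which was lost with all 48 samples (adjusted p = 0.0776). At week 4 the duodenal samples, at 759.8, 1768 and 1399 CPM, overlapped the ileal ones, at 2139, 2572 and 1349 CPM.

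The endopeptidase gene Mme had the opposite regional bias. Its duodenal samples were 359.7, 721 and 964 CPM at day 0, 479, 302 and 409 CPM at week 2, then 1069.7, 1187 and 1016 CPM at week 3. Its ileal samples ranged widely at day 0, at 1.81, 144 and 59.4 CPM, and were 12.8, 6.53 and 9.74 CPM at week 2. They were 254, 516 and 467 CPM at week 3, then 1028, 353 and 350.4 CPM at week 4. The samples of week 3 and week 4 overlapped each other and lay above every earlier ileal sample. The ileal rise from week 2 to week 3 was 5.41 ± 0.78, or 42.6-fold (edgeR adjusted p = 1.82e-06). The duodenal difference of 1.46 ± 0.66 did not pass the test (adjusted p = 0.13), although those samples did not overlap.

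The meprin genes parted ways. Mep1b was 250.2, 241 and 239.8 CPM in duodenum at week 2, 591, 719 and 565 CPM at week 3, then 838, 1849 and 1311 CPM at week 4. In ileum it was 329, 333 and 375 CPM, 868, 1115 and 899 CPM and 1894, 1986 and 1115 CPM at these ages. It rose from week 2 to week 3 without overlap, by 1.36 ± 0.21 (edgeR adjusted p = 6.33e-06) in duodenum and 1.47 ± 0.22 (adjusted p = 9.75e-07) in ileum. Mep1a instead fell in duodenum, from 439, 339 and 343 CPM to 173, 155 and 122 CPM (−1.32 ± 0.30, adjusted p = 0.00122). By week 4 its duodenal samples stood at 69.5, 202 and 109 CPM. Ileal Mep1a was 1123, 522 and 607 CPM at day 0 and 533, 1060.4 and 568 CPM at week 4, with overlap, and was the only member whose effect of age did not pass the test in ileum (adjusted p = 0.204).

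Tmprss15 was measured mainly in duodenum. Its duodenal samples were 1.19, 7.56 and 12 CPM at day 0, 81.1, 34.6 and 63.4 CPM at day 2 and 0.402 and 0.227 CPM at day 6. They were 13, 0.254 and 7.36 CPM at week 2, then 147, 159 and 80.3 CPM at week 3, a rise of 4.22 ± 1.02 (edgeR adjusted p = 0.00298) without overlap. All samples of day 2 lay above those of day 0, but that difference did not pass the test (adjusted p = 0.0502). In ileum every sample from day 2 to week 3 was at 0.884 CPM or less. Both ileal samples of day 6 had 0 counts, which allows up to 3 counts, or 0.130 CPM, counting error only. At week 4 the ileal samples were 9.96, 4.69 and 18.4 CPM, above those of week 3 (adjusted p = 0.006). Fitted folds of a gene this close to 0 depend on a small count that the fit adds, so none is given for ileum.

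Ace, which trims dipeptides and also makes angiotensin II, was high at birth in both regions. Its duodenal samples were 2048, 1568 and 1723 CPM at day 0, 294 and 534 CPM at day 6, 1814, 1168 and 1272 CPM at week 2, 971, 1081 and 872 CPM at week 3, then 1125, 3122 and 2473 CPM at week 4. The day 6 samples lay below all those of day 0, week 2 and week 3. Its ileal samples were 1719, 1145 and 1629 CPM at day 0 and 1412, 588 and 401 CPM at week 4, with overlap, a fall of 0.90 ± 0.35 on the log2 scale (edgeR adjusted p = 0.0376). That call was lost without any 1 of ileum day 0 samples 1 and 3 and ileum week 4 samples 2 and 3 (adjusted p = 0.0739 to 0.197) and with all 48 samples (adjusted p = 0.101). Without ileum week 4 sample 1 the difference was −1.64. Endothelium also makes Ace. The 5 endothelial markers summed to 98.4 to 189 CPM in duodenum at day 0 and 8.91 to 9.70 CPM at week 4, and to 45.4 to 199 and 12.9 to 42.6 CPM in ileum, and their part in the values of Ace was not tested.

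Over all ages, 8 of 8 members had an effect of age in duodenum, where 67.4% of the 21986 genes tested did, and 7 of 8 in ileum, against 58.7% of all genes. The duodenal effect of Mme (edgeR adjusted p = 0.0195) was lost without duodenum day 6 sample 1 (adjusted p = 0.0502) and with all 48 samples (adjusted p = 0.091), and the ileal effect of Ace (adjusted p = 0.0134) with all 48 samples (adjusted p = 0.068). Between day 0 and week 4 in duodenum 6 members differed, against 40.5% of all genes. Anpep (2.58 ± 0.26), Mep1b (2.02 ± 0.22), Enpep, Dpp4 and Tmprss15 rose, where 20.4% of all genes did, and Mep1a fell (−1.72 ± 0.30), where 20.1% did. The median log2 fold change was 1.68 over the members and −0.02 over all genes. In ileum 7 members differed, against 41.9% of all genes. Anpep (3.00 ± 0.26), Mme (3.08 ± 0.70), Mep1b (2.54 ± 0.22), Dpp4, Enpep and Tmprss15 rose, where 21.5% of all genes did, and Ace fell, where 20.4% did. The median was 2.32 over the members and 0.08 over all genes. The ileal call of Tmprss15 (adjusted p = 0.0223) was lost without any 1 of ileum day 0 samples 1 and 3 and ileum week 4 sample 3 (adjusted p = 0.0964 to 0.106), and its ileal day 0 level rests on sample 2, at 4.09 CPM. The ileal call of Enpep (adjusted p = 0.000422) was lost with all 48 samples (adjusted p = 0.111). The microvillus structure genes were themselves higher at week 4, by 0.55 ± 0.23 (mean log2 CPM ± pooled SD) in duodenum and 0.62 ± 0.26 in ileum. Relative to them, Anpep, Dpp4, Enpep and Mep1b were higher in both regions without overlap, ileal Enpep by 0.51 ± 0.26. So were ileal Mme and duodenal Tmprss15. Duodenal Mep1a (−2.40 ± 0.34) and ileal Ace (−1.71 ± 0.45) were lower without overlap. Ileal Tmprss15 and Mep1a and duodenal Mme and Ace overlapped between the ages. Relative to Epcam and Cdh17, markers of the whole epithelium, ileal Tmprss15, duodenal Mme and duodenal Enpep overlapped. Duodenal Mep1a and ileal Ace were again lower without overlap. The share of all genes without overlap was not determined.

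The single steps show where these changes lay. From day 0 to day 2, Enpep was the 1 member called in duodenum, against 6.8% of all genes. In ileum edgeR called 0 members, against 5.2% of all genes, with 1 at an unadjusted p under 0.05 and 0 called by DESeq2. From day 2 to day 8, 6 members fell in duodenum, where 34% of all genes changed (18.8% rose and 15.2% fell). They were Anpep (−1.11 ± 0.25), Enpep, Mep1a, Mep1b, Tmprss15 and Ace, which fell by 1.97 ± 0.36 (edgeR adjusted p = 7.38e-05) from 1945, 1975 and 2068 CPM to 531, 466 and 532 CPM. The call of duodenal Enpep (adjusted p = 0.012) was lost without duodenum day 2 sample 2 (adjusted p = 0.0653) and with all 48 samples (adjusted p = 0.284). In ileum Dpp4 (adjusted p = 0.0489) and Ace (−1.44 ± 0.36, adjusted p = 0.00981) fell, where 9.79% of all genes changed (4.04% rose and 5.74% fell). The call of Dpp4 was lost without any 1 of ileum day 2 samples 1, 2 and 3 and ileum day 8 samples 1, 2 and 3 (adjusted p = 0.0621 to 0.182) and with all 48 samples (adjusted p = 0.0711), and that of ileal Ace without ileum day 8 sample 1 (adjusted p = 0.103).

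From day 8 to week 2, Enpep (1.23 ± 0.27), Mep1a (1.15 ± 0.30), Mep1b (0.81 ± 0.21) and Ace (1.48 ± 0.36) rose in duodenum, where 15.7% of all genes changed (6.75% rose and 8.93% fell). In ileum edgeR called 0 members, against 6.64% of all genes (4.17% rose and 2.47% fell), with 2 at an unadjusted p under 0.05 and 2 called by DESeq2. The duodenal call of Mep1a (edgeR adjusted p = 0.0081) was lost without duodenum week 2 sample 1 (adjusted p = 0.0657) and that of Ace (adjusted p = 0.005) without duodenum week 2 sample 1 (adjusted p = 0.0542). With all 48 samples the calls of Enpep (adjusted p = 0.193), Mep1a (adjusted p = 0.0672) and Mep1b (adjusted p = 0.116) were lost.

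Pups were kept with their mother to day 21, which falls at week 3. The sample titles do not say whether the week 3 samples were taken before or after the move to chow. Between week 2 and week 3 18.3% of all genes changed in duodenum (7.7% rose and 10.6% fell), and there 5 members rose and Mep1a fell. In ileum 26.8% of all genes changed (12.9% rose and 13.9% fell), and 5 members rose. Anpep, Dpp4, Enpep and Mep1b rose in both regions, Tmprss15 in duodenum and Mme in ileum. The median over the members was 1.48 in duodenum and 1.45 in ileum, against 0.03 over all genes in each. From week 3 to week 4, Anpep (2.16 ± 0.26), Mep1b (1.09 ± 0.21) and Ace (1.2 ± 0.36) rose in duodenum, where 12.7% of all genes changed (7.75% rose and 4.96% fell). Anpep (0.80 ± 0.25), Mep1b (0.79 ± 0.21) and Tmprss15 rose in ileum, where 16.1% changed (8.26% rose and 7.81% fell). The duodenal call of Ace (edgeR adjusted p = 0.0198) was lost without any 1 of duodenum week 3 samples 1 and 3 and duodenum week 4 samples 2 and 3 (adjusted p = 0.0668 to 0.171) and with all 48 samples (adjusted p = 0.0818). The ileal call of Anpep (adjusted p = 0.0215) was lost without any 1 of ileum week 3 samples 1 and 3 and ileum week 4 samples 1 and 2 (adjusted p = 0.0516 to 0.152). That of ileal Mep1b (adjusted p = 0.00703) was lost without ileum week 4 sample 2 (adjusted p = 0.0622) and with all 48 samples (adjusted p = 0.117).

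**Figure D2:**
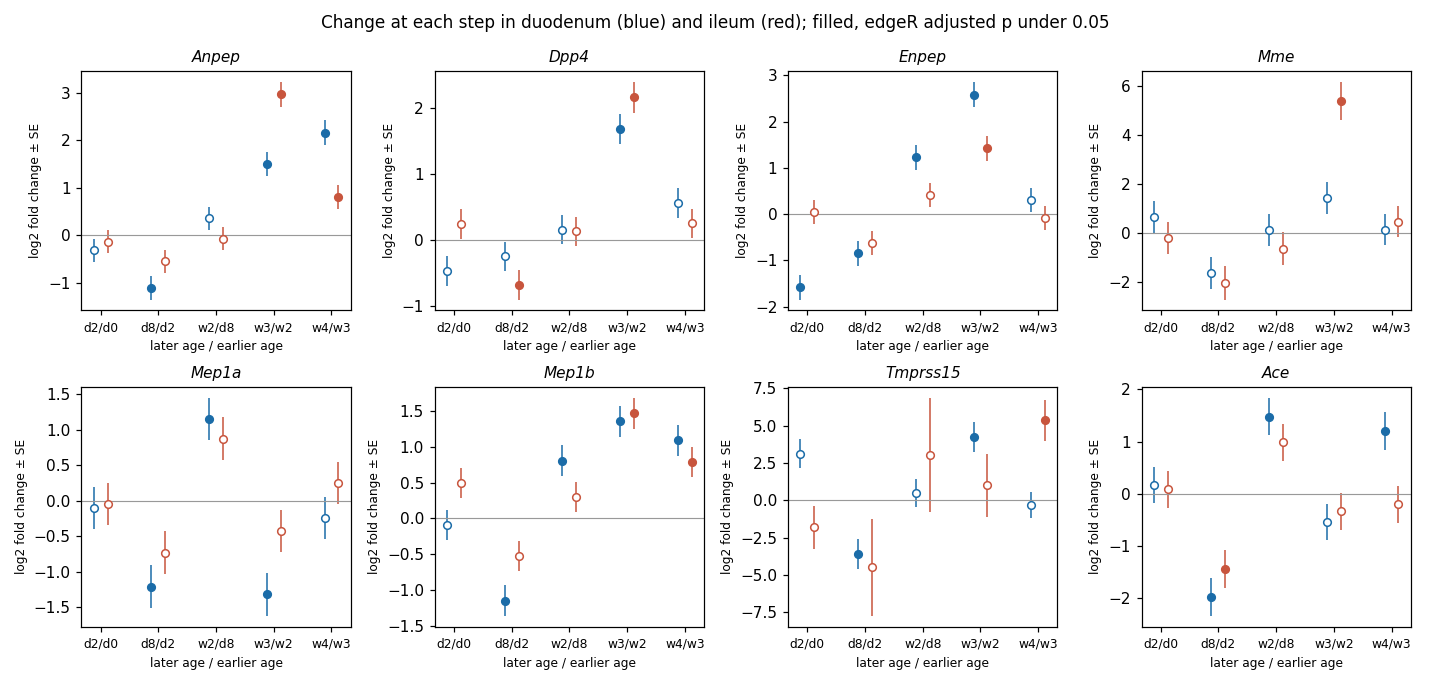
Log2 fold change ± SE at each of 5 steps between ages for the 8 members in duodenum (blue) and ileum (red); filled points passed an edgeR adjusted p of 0.05. At week 3 against week 2 the filled points lie above 0 except duodenal Mep1a, and at day 8 against day 2 the filled points lie below 0.

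In bulk tissue fewer cells of a type and less RNA per cell cannot be told apart, so the members were also set against the 10 genes of microvillus structure in the same samples. The mean log2 CPM of those genes differed by 0.11 ± 0.20 (week 3 minus week 2 ± pooled SD, n = 3 and 3) in duodenum, with overlap, and by 0.39 ± 0.15 in ileum, without. Relative to them, the step at week 3 in duodenum was 1.39 ± 0.19 for Anpep, 1.57 ± 0.30 for Dpp4, 2.49 ± 0.38 for Enpep and 1.24 ± 0.20 for Mep1b. In ileum it was 2.55 ± 0.18 for Anpep, 1.77 ± 0.17 for Dpp4, 1.03 ± 0.13 for Enpep, 1.07 ± 0.04 for Mep1b and 5.0 ± 0.44 for Mme. Duodenal Mme (1.37 ± 0.14) and Tmprss15 (5.19 ± 1.94) were also higher at week 3 on this scale. The week 2 and week 3 samples did not overlap for any of these. The share of all genes without overlap on this scale was not determined, so non-overlap here is description and not a test. Relative Mep1a was lower at week 3 without overlap in both regions, at −1.43 ± 0.12 in duodenum and −0.83 ± 0.16 in ileum. Relative Ace was lower as well, at −0.63 ± 0.10 in duodenum and −0.72 ± 0.20 in ileum, again without overlap. Per library, Ace in either region and ileal Mep1a did not pass the edgeR test at this step. The higher level of the microvillus genes at week 3, by 0.39 in ileum, is part of the relative values. Against Epcam and Cdh17, markers of the whole epithelium, each of these relative differences kept its sign and the ages did not overlap.

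**Figure D3:**
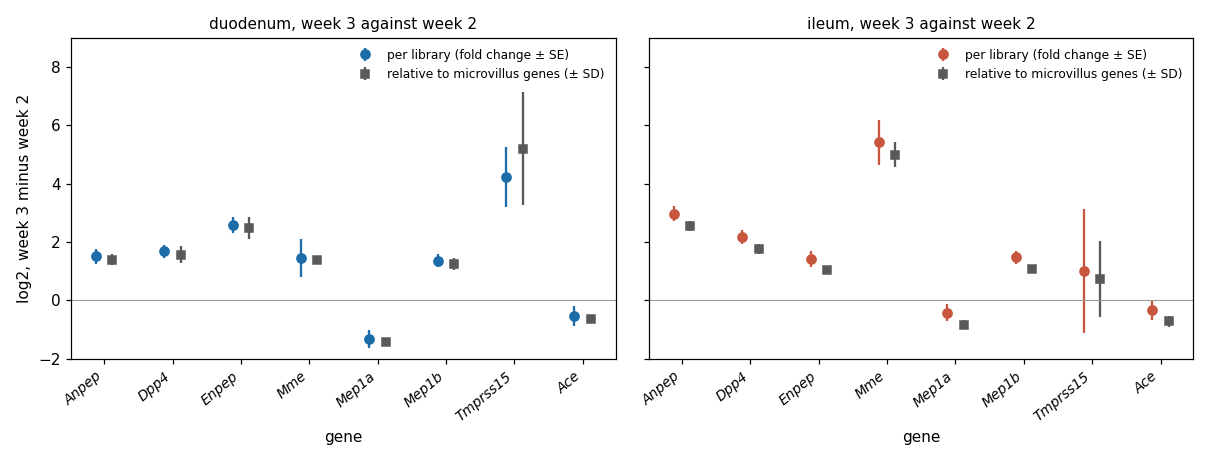
Log2 difference between week 3 and week 2 for each member in duodenum and ileum, per library (circles, fold change ± SE) and relative to the mean of 10 microvillus structure genes (squares, ± pooled SD). Anpep, Dpp4, Enpep and Mep1b lie above 0 and Mep1a below 0 on both scales in both regions. Ileal Mep1a per library did not pass the edgeR test.

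From day 2 to day 8 the microvillus genes were themselves 0.72 ± 0.07 lower in duodenum and 0.53 ± 0.15 lower in ileum. The mean of Epcam and Cdh17 differed by 0.09 ± 0.05 in duodenum and −0.36 ± 0.10 in ileum, so the members' values depend on which reference is used. Relative to the microvillus genes, duodenal Ace differed by −1.25 ± 0.09, Mme by −0.88 ± 0.21, Mep1a by −0.49 ± 0.06, Mep1b by −0.43 ± 0.07 and Anpep by −0.41 ± 0.18, without overlap. Relative to Epcam and Cdh17 the same genes differed by −2.06 ± 0.09, −1.68 ± 0.20, −1.29 ± 0.06, −1.23 ± 0.07 and −1.22 ± 0.19, also without overlap. Duodenal Enpep overlapped between the ages on the first scale (−0.11 ± 0.25) and not on the second (−0.91 ± 0.26). Duodenal Dpp4 was higher at day 8 relative to the microvillus genes (0.47 ± 0.06) and lower relative to Epcam and Cdh17 (−0.33 ± 0.05). Ileal Ace differed without overlap on both scales, by −0.94 ± 0.16 and −1.11 ± 0.28. Ileal Dpp4, Enpep, Mme and Mep1a overlapped relative to the microvillus genes but not relative to Epcam and Cdh17, where they differed by −0.32 ± 0.08, −0.27 ± 0.02, −1.49 ± 0.75 and −0.37 ± 0.16. Ileal Anpep and Mep1b overlapped on both scales. The share of all genes without overlap on these scales was not determined. In duodenum 5 genes of crypt and dividing cells, among them Olfm4 and Mki67, summed to 1123 to 1438 CPM at day 2 and 5065 to 5831 CPM at day 8, and 5 of 5 rose, where 18.8% of all genes did. At the same step 8 of 10 microvillus genes fell, where 15.2% of all genes did. The part of either in the members' values was not tested.

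**Figure D4:**
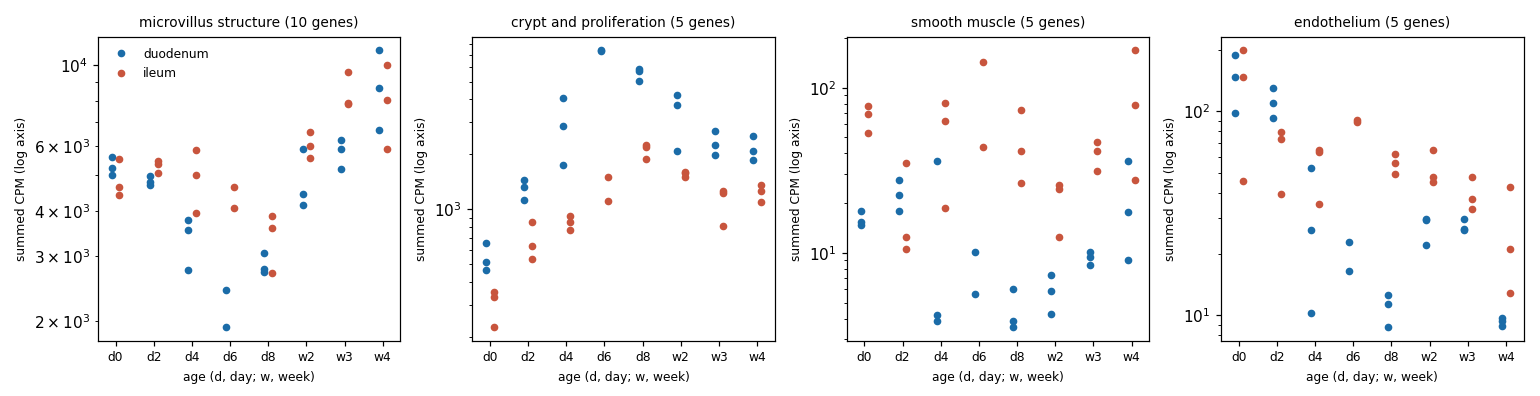
Summed CPM per sample, on a log axis, of marker genes of microvillus structure, crypt and dividing cells, smooth muscle and endothelium against age in duodenum (blue) and ileum (red). In duodenum the microvillus sum is lowest at day 6, at 1924 to 2430.1 CPM, where the crypt sum is highest, at 7323 to 7403 CPM.

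Averaged over ages, 6 of 8 members differed between the regions, against 62.1% of all genes. Higher in ileum were Enpep (2.16 ± 0.10, log2 ileum over duodenum ± SE), Mep1a (1.51 ± 0.11), Mep1b (0.66 ± 0.08) and Dpp4 (0.44 ± 0.08). Higher in duodenum were Mme (−3.55 ± 0.27) and Tmprss15. Anpep (−0.05 ± 0.09, edgeR adjusted p = 0.647) and Ace (−0.05 ± 0.13, adjusted p = 0.795) did not pass the test.

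Age by age the set of members that differed between regions changed. At day 0 they were Enpep and Mme, against 6.1% of all genes, and at day 2 Dpp4, Enpep, Mme and Tmprss15, against 8.01%. At day 4 there were 6, Dpp4, Enpep, Mme, Mep1a, Mep1b and Tmprss15, against 26.6%. At day 6 there were 5, Enpep, Mme, Mep1a, Mep1b and Ace, against 35.3%, and at day 8 Enpep, Mme, Mep1a, Mep1b and Tmprss15, against 39.6%. At week 2 Enpep, Mme, Mep1a and Tmprss15 differed, against 22.4%. At week 3 it was 6, Anpep, Dpp4, Enpep, Mep1a, Mep1b and Tmprss15, against 14.2%, and at week 4 Mep1a, Tmprss15 and Ace, against 28.4%.

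Enpep was higher in ileum at 7 of 8 ages, by 1.14 ± 0.27 at day 0, 3.50 ± 0.36 at day 6 and 1.01 ± 0.27 at week 3. The day 6 value depends in part on leaving out the samples numbered 3, which look exchanged partly by Enpep itself. With all 48 samples Enpep differed by 0.91 at that age. At week 4 its difference of 0.63 ± 0.26 did not pass (edgeR adjusted p = 0.0694). Mme was lower in ileum at 6 of 8 ages, most at week 2 (−5.36 ± 0.78), while at week 3 (−1.40 ± 0.66, adjusted p = 0.154) and week 4 (−1.08 ± 0.65, adjusted p = 0.212) it did not pass. The Mme samples of the regions did not overlap at week 3 and did at week 4. Mep1a was higher in ileum at 6 of 8 ages, and its samples did not overlap between regions at any of the 8. Its widest difference was 2.50 ± 0.31 at week 4 (adjusted p = 3.66e-07). Anpep passed the test at week 3 alone (1.19 ± 0.25, adjusted p = 0.00108). Its samples did not overlap between regions at 4 of 8 ages, with ileum lower at day 0, day 2 and week 2 and higher at week 3. Ace was higher in ileum at day 6 (1.45 ± 0.44) and in duodenum at week 4 (−1.48 ± 0.36), where its samples overlapped. At day 6 the microvillus genes summed to 4062 and 4652 CPM in ileum against 1924 and 2430.1 CPM in duodenum, and the crypt genes to 1505 and 1110.2 CPM against 7323 and 7403 CPM. The endothelial markers summed to 88.4 to 90.6 CPM in ileum and 16.6 to 22.9 CPM in duodenum at that age. Their part in the regional differences at day 6, those of Enpep, Mme, Mep1a, Mep1b and Ace, was not tested.

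**Figure D5:**
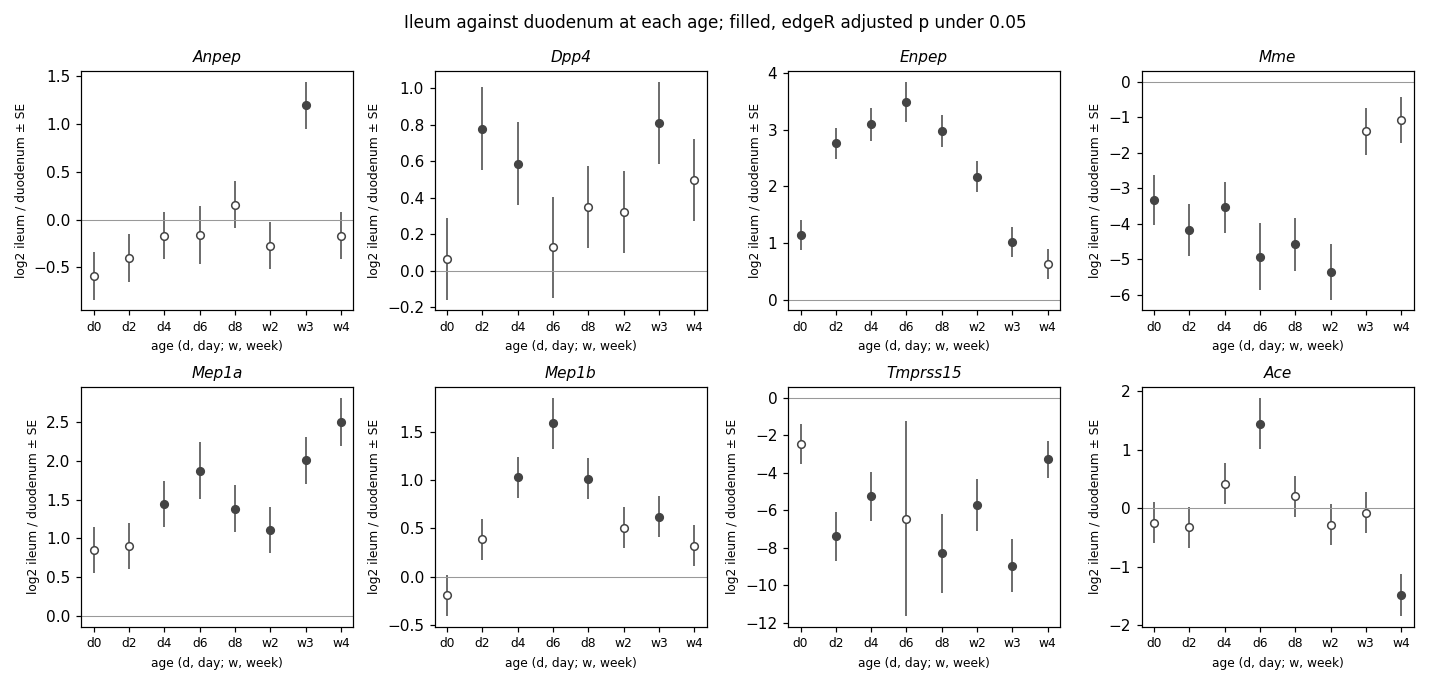
Log2 ileum over duodenum ± SE at each of the 8 ages for the 8 members; filled points passed an edgeR adjusted p of 0.05, and the Tmprss15 values depend on the small count that the fit adds. Enpep is highest at day 6, at 3.50, Mme lowest at week 2, at −5.36, and Mep1a highest at week 4, at 2.50. The day 6 values leave out the samples that look exchanged, in part by Enpep and Mme themselves.

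Some regional calls were lost when 1 library was left out. For Dpp4 the call was lost at day 2 without any 1 of duodenum day 2 samples 1, 2 and 3 and ileum day 2 samples 2 and 3 (adjusted p = 0.0634 to 0.0874), at day 4 without any 1 of duodenum day 4 samples 2 and 3 and ileum day 4 samples 1 and 3 (adjusted p = 0.0582 to 0.293) and at week 3 without any 1 of duodenum week 3 sample 3 and ileum week 3 sample 3 (adjusted p = 0.0696 to 0.0699). The day 2 difference of Dpp4 stayed at 0.73 to 0.80 in the fits that lost its call. Its day 4 difference of 0.59 ± 0.23 was 0.36 without duodenum day 4 sample 3. For Mep1b the call was lost at week 3 without any 1 of duodenum week 3 samples 1, 2 and 3 and ileum week 3 samples 2 and 3 (adjusted p = 0.0554 to 0.172), and for Ace at day 6 without any 1 of duodenum day 6 sample 1 and ileum day 6 sample 2 (adjusted p = 0.0732 to 0.14). Enpep was lost at day 0 without any 1 of duodenum day 0 sample 3 and ileum day 0 sample 1 (adjusted p = 0.0506 to 0.0856) and at week 3 without duodenum week 3 sample 3 (adjusted p = 0.0513), and Tmprss15 at week 4 without any 1 of duodenum week 4 sample 3 and ileum week 4 sample 2 (adjusted p = 0.051 to 0.0638). With all 48 samples under their labels edgeR called 0 members at day 6, where Enpep differed by 0.91 (adjusted p = 0.74) and Mme by −0.63 (adjusted p = 0.848). The calls of Enpep (adjusted p = 0.358) and Mme (adjusted p = 0.0661) at day 0, Dpp4 at day 4 (adjusted p = 0.0611), Mep1a at week 2 (adjusted p = 0.0603), and Enpep (adjusted p = 0.291) and Mep1b (adjusted p = 0.242) at week 3 were lost as well.

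The course over age differed between regions for 6 members, against 22.4% of all genes, by an edgeR test of the interaction. They were Enpep (adjusted p = 9.56e-07), Mep1b (adjusted p = 0.0031), Mme (adjusted p = 0.00592), Anpep (adjusted p = 0.0072), Ace (adjusted p = 0.0111) and Mep1a (adjusted p = 0.0249). Dpp4 (adjusted p = 0.354) and Tmprss15 (adjusted p = 0.0584) did not pass. The call of Mep1a was lost without any 1 of duodenum week 4 sample 3 and ileum week 4 sample 2 (adjusted p = 0.0605 to 0.068). With all 48 samples Anpep alone passed. The step from week 2 to week 3 was larger in ileum than in duodenum for 2 members, Anpep by 1.46 ± 0.35 (adjusted p = 0.0214) and Mme by 3.95 ± 0.95 (adjusted p = 0.0264), against 1.38% of all genes with a difference. The change from day 0 to week 4 differed for Mep1a, by 1.66 ± 0.42 (adjusted p = 0.015), against 5.99% of all genes. The call of Anpep was lost without any 1 of duodenum week 2 sample 1, duodenum week 3 sample 1, ileum week 2 sample 1 and ileum week 3 sample 2 (adjusted p = 0.0518 to 0.0932), and that of Mme without any 1 of duodenum week 2 samples 1 and 3, duodenum week 3 samples 1, 2 and 3, ileum week 2 samples 2 and 3 and ileum week 3 samples 2 and 3 (adjusted p = 0.051 to 0.101) and with all 48 samples (adjusted p = 0.262). That of Mep1a was lost without any 1 of duodenum week 4 sample 1 and ileum week 4 sample 2 (adjusted p = 0.0585 to 0.0613) and with all 48 samples (adjusted p = 0.0897).

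Per length, in CPM per kilobase of exon, Anpep ranked highest in duodenum at 7 of 8 ages. At day 0 it stood at 475 ± 23.9 (SD, n = 3), Ace at 337 ± 46.3 and Tmprss15 at 1.65 ± 1.3. At day 2 Anpep (379 ± 4.38) and Ace (378 ± 12.2), and at week 2 Ace (268 ± 65.6) and Anpep (224 ± 11.6), lay closer than the sum of their SDs. At week 4 the duodenal order was Anpep (2835 ± 807), Mep1b (508 ± 193), Ace (424 ± 193), Enpep (278 ± 108), Dpp4 (149 ± 65.3), Mme (105 ± 31.1), Mep1a (36.8 ± 19.8) and Tmprss15 (24.8 ± 14.4). By the same measure, neighbours in that order did not differ beyond their spread from Mep1b to Mme, nor did Mep1a and Tmprss15. In ileum at week 2 Mep1a (234 ± 30.7), Ace (220.1 ± 46.5) and Anpep (186 ± 16.2) led, each within the spread of the next. At week 4 the ileal order was Anpep (2522 ± 976), Mep1b (634 ± 182), Enpep (429 ± 132), Dpp4 (209.98 ± 71.3), Mep1a (209 ± 85.5), Ace (151 ± 102), Mme (50.0 ± 33.8) and Tmprss15 (2.63 ± 1.65). There Mep1b and Enpep, Dpp4 and Mep1a, Mep1a and Ace, and Ace and Mme did not differ beyond their spread.

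Members were compared with each other by Pearson r of log2 CPM. Over the 23 ileal samples Dpp4 had r = 0.966 with Enpep, 0.958 with Mep1b and 0.948 with Anpep. Over the 23 duodenal samples Enpep had 0.942 with Mep1b and 0.941 with Dpp4. Mep1a had r from −0.37 (with Dpp4) to 0.484 (with Ace) in duodenum. Across all 46 samples Enpep and Mme had r = −0.19, although it was 0.707 within duodenum and 0.784 within ileum. Samples of 1 age and region share their level, so values within a region describe courses over age. Values over all 46 samples, here and below, also hold the differences between regions.

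The genes with the most similar pattern over 46 samples were sought among 12356 named genes whose mean log2 CPM reached 1. For Anpep they were Atp6v0a2 (r = 0.951), Abcb10 (r = 0.939) and Lap3 (r = 0.938), the last a cytosolic leucine aminopeptidase. For Dpp4 they were Slc35e2 (r = 0.952), Mgam (r = 0.95) and Efnb2 (r = 0.947), among them the maltase-glucoamylase gene Mgam, and for Enpep Cndp2 (r = 0.973), Sgk2 (r = 0.963) and Srxn1 (r = 0.933), where Cndp2 is a cytosolic dipeptidase. Mme was most like Cyp2d26 (r = 0.919), Cd302 (r = 0.916) and Heatr5a (r = 0.913), and Mep1a most like Tram2 (r = 0.939), Trim62 (r = 0.897) and Slc44a4 (r = 0.895). Mep1b was most like Stap2 (r = 0.955), Gpat3 (r = 0.955) and Slc26a6 (r = 0.951), the last an anion exchanger, and Ace most like Mertk (r = 0.919), Apoa1 (r = 0.886) and Susd6 (r = 0.883), among them the apolipoprotein gene Apoa1. Tmprss15 was below the level required.

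Other genes of peptide digestion were read at the step from week 2 to week 3. Of all genes 7.7% rose and 10.6% fell in duodenum at this step, and 12.9% rose and 13.9% fell in ileum. Of 6 further apical peptidases 5 were tested, and 4 of these rose in each region. Dpep1, a membrane dipeptidase, went from a mean of 7.73 to 208 CPM in duodenum (4.75 ± 0.33, edgeR adjusted p = 1.09e-13) and from 3.07 to 472 CPM in ileum (7.26 ± 0.38, adjusted p = 2.49e-17). Ggt1, which cleaves glutathione, rose by 3.27 ± 0.32 in duodenum and 6.87 ± 0.38 in ileum, and Xpnpep2, an aminopeptidase for bonds before proline, by 2.28 ± 0.36 and 4.34 ± 0.40. The median over the list was 2.28 in duodenum and 4.34 in ileum, against 0.03 over all genes in each.

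Inside the cell, 4 of 6 cytosolic peptidases rose in each region, where 7.7% of all genes rose in duodenum and 12.9% in ileum, among them the prolidase gene Pepd by 1.44 ± 0.20 in duodenum and 1.96 ± 0.20 in ileum, and 0 fell. Of 11 transporters of peptides and amino acids 4 rose in duodenum and 7 in ileum, and 0 fell in either. The peptide transporter gene Slc15a1 went from 113 to 452 CPM in duodenum (2.00 ± 0.33) and from 79.9 to 949.7 CPM in ileum (3.57 ± 0.35). Of the 10 microvillus genes 4 rose in ileum, and in duodenum Vil1 (0.88 ± 0.17) and Myo1a (1.76 ± 0.17) rose while Eps8 (−0.54 ± 0.17) and Anks4b (−0.70 ± 0.19) fell. Of 5 crypt and proliferation genes 3 fell in each region, where 10.6% of all genes fell in duodenum and 13.9% in ileum.

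Some transcription factors known from gut epithelium changed at this step. Prdm1, a repressor known from the suckling epithelium, fell from 94.6 to 10.6 CPM in duodenum (−3.16 ± 0.23, edgeR adjusted p = 2.38e-13) and from 150.3 to 12.6 CPM in ileum (−3.57 ± 0.24, adjusted p = 9.94e-15). Klf4 rose by 1.57 ± 0.19 and 1.70 ± 0.19, and Hnf4g, which encodes an HNF4 factor, by 1.27 ± 0.23 and 1.70 ± 0.24. Averaged over ages Gata4, a factor of the proximal intestine, was lower in ileum (−1.46 ± 0.11, adjusted p = 2.48e-13).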

How the data were processed

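RNA-seq of 48 samples of mouse duodenum and ileum was used. The authors deposited estimated counts per gene, not scaled between samples, and, per region, a normalized signal (estimated counts divided by a size factor per sample) that lacks day 4 and the day 6 samples numbered 3. The submitters' processing notes name STAR 2.6.1d, Salmon 0.14.2, DESeq2 1.30.1 and mm10, and their settings are not given in the sources used here. The deposited counts were rounded, and the groups are those of the labels.

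The 46 samples were scaled by TMM, and the 21986 genes that passed filterByExpr were tested with edgeR 4.0.16 (R 4.3.3) by the quasi-likelihood F test over 16 groups, with Benjamini-Hochberg adjustment over all genes and a threshold of 0.05. SEs were taken as the size of the log2 fold change over the root of its F value. CPM values of the 2 samples left out were scaled with all 48. Gene names came from the authors' deposited signal tables, exon lengths from GENCODE annotation of the same build, and promoters from RefSeq. Log2 CPM values used a prior count of 2. Non-overlap of samples, per library or relative to other genes, is description, and its share over all genes was not determined. The alternatives were DESeq2 1.42.0, RLE scaling, other filters, all 48 samples, no day 4, only the groups compared, a replicate block, limma 3.58.1 on the authors' normalized signal, and leaving out each sample, which kept the genes and the dispersion trend of the 46 samples. The scripts were tested on simulated data. The 8 members and the lists were chosen with earlier results of these data known. Named genes are the 8 members, 2 to 4 genes a list (the largest changes among those called, and called genes against the majority) and the 3 genes most like each member. The counts of the transcription factor list are not reported here.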

Additional observations from a re-analysis of the deposited data

Results flagged for a closer look

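The course over age differed between duodenum and ileum, by the edgeR interaction test, for Enpep (adjusted p = 9.56e-07), Mep1b (adjusted p = 0.0031), Mme (adjusted p = 0.00592), Anpep (adjusted p = 0.0072), Ace (adjusted p = 0.0111) and Mep1a (adjusted p = 0.0249). The step from week 2 to week 3 was larger in ileum for Anpep, at 2.97 ± 0.26 against 1.5 ± 0.25 in duodenum (log2 ± SE, adjusted p = 0.0214 for the difference). It was also larger in ileum for Mme, at 5.41 ± 0.78 against 1.46 ± 0.66 (adjusted p = 0.0264). From day 0 to week 4 Mep1a differed by −0.06 ± 0.30 in ileum and by −1.72 ± 0.30 in duodenum (adjusted p = 0.015 for the difference). Of all genes 22.4% passed the interaction test, 1.38% that of the step to week 3 and 5.99% that from day 0 to week 4. The call of the step ended without any 1 of 4 samples for Anpep and 9 for Mme. For Mep1a the interaction and the change to week 4 each ended without any 1 of 2 samples. With all 48 samples Anpep alone passed the interaction, and Mme (edgeR adjusted p = 0.262) and Mep1a (adjusted p = 0.0897) lost their differences.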

How the results depend on the processing

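No called log2 difference of a member changed sign under any alternative run. The untested duodenal difference of Dpp4 from day 2 to day 8 relative to the microvillus genes (0.47) was −0.33 relative to Epcam and Cdh17. Of 208 member tests, 177 kept their side of the threshold with all 48 samples and 31 calls were lost. With DESeq2 2 were lost and 9 gained, with RLE scaling 1 and 3, with no filter 7 and 0, with a minimum mean count of 10 it was 0 and 8, and without day 4 0 and 12 of 200. Fitting only the groups compared lost 14 and gained 21 of 187, limma gained 5 of 112 at either pseudocount, and leaving out single samples lost 67 and gained 16 of 2240. The 112 limma values include tests of the effect of age that do not bear on it. The authors' signal lacks day 4, so those tests also asked whether the day 0 level was 0, and passed for that reason.

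Members called moved by over 1.5 times as follows. In duodenum from day 0 to day 2 (1) it was 0 with all 48 samples, 2 without day 4, with RLE scaling or with a mean count of at least 10, and 3 with only the groups compared. In duodenum from day 8 to week 2 (4) it was 1 with all 48 samples. In ileum from day 0 to day 2 (0) it was 1 with only the groups compared. In ileum from day 2 to day 8 (2) it was 1 with all 48 samples, RLE scaling or no filter, 4 without day 4 and 6 with only the groups compared. In ileum from day 8 to week 2 (0) it was 2 without day 4, with DESeq2 or with only the groups compared. With only the groups compared it was 1 in ileum from week 3 to week 4 (3), 4 from day 0 to week 4 (7), and for ileum against duodenum 0 at day 0 (2), 7 at day 2 (4) and 2 at day 4 (6). With all 48 samples it was 0 at day 0, 0 at day 6 (5) and 1 for the interaction (6). At week 4 (3) it was 5 without day 4 or with a mean count of at least 10. For the difference between regions in the step to week 3 (2) it was 1 with all 48 samples or no filter, and for that from day 0 to week 4 (1) 0 with all 48 samples or only the groups compared. Leaving out single samples gave 2 to 4 members from day 8 to week 2 in duodenum, 0 to 1 from day 2 to day 8 and 1 to 3 from week 3 to week 4 in ileum, 1 to 4 between regions at day 0, 3 to 6 at week 3 and 2 to 6 at week 4, and 0 to 2 for each difference between regions. Which sample ends which call stands beside the results.

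The replicate block, with the number in the labels as a pair or block, changed 9 of 208 member calls. Anpep from week 3 to week 4 in ileum (edgeR adjusted p = 0.0592), Tmprss15 from day 0 to week 4 in ileum (adjusted p = 0.0805) and Dpp4 between regions at day 4 (adjusted p = 0.0592) were lost. Gained were duodenal Mme from day 2 to day 8 (adjusted p = 0.00132) and from week 2 to week 3 (adjusted p = 0.00622), ileal Enpep from day 2 to day 8 (adjusted p = 0.0474), and, between regions, Mep1a at day 0 (adjusted p = 0.0129) and day 2 (adjusted p = 0.00272) and Enpep at week 4 (adjusted p = 0.0363), which makes Mep1a and Enpep higher in ileum at 8 of 8 ages with the block. The main fit treats the regions as unpaired, because the rule set for pairing was not met. Deviations from group means gave r over 0.1 in 16 of 23 pairs of an age and number (range −0.363 to 0.672). Of 46 samples 34 correlated best with their own number, among the 2 or 3 samples of the other region at that age. At day 6, with 2 samples a group, both pairs must give the same r (0.187). The samples of that age therefore match their own number by the sign of this 1 value. Whether samples of the same number share a mouse is therefore not settled here.

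Counts over all genes moved by over 1.5 times with all 48 samples in duodenum from day 0 to day 2 and from day 8 to week 2 (1495 to 869 and 3448 to 1528), in ileum for the first 3 steps (1143 to 541, 2152 to 1073 and 1460 to 417), between regions (1342 to 578 (day 0), 1762 to 1024 (day 2), 5855 to 3851 (day 4), 7762 to 0 (day 6), 4922 to 2561 (week 2) and 3117 to 1376 (week 3)) and for the differences of change (303 to 113 and 1317 to 697). Without day 4 they moved in duodenum (1495 to 2613 (day 2) and 2794 to 4568 (week 4)), ileum (1143 to 2518 (day 2), 2152 to 4143 (day 8) and 1460 to 3037 (week 2)), between regions (1342 to 2419 (day 0), 1762 to 2903 (day 2) and 3117 to 5585 (week 3)) and for the differences (303 to 672 and 1317 to 3146), and with DESeq2 in ileum from day 0 to day 2 (1731) and for the step to week 3 (568). With all 48 samples or without day 4, comparisons that lack the age concerned use the same samples as the main fit. For them only the filter, the scaling and the spread estimated over all groups differ. Which of these moved the counts was not tested. Depth limits Tmprss15 in ileum, where samples held from 0 counts.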
